A study of Rattus norvegicus with 9 samples.

Results

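Genes for the enzymes of extracellular matrix breakdown and for their inhibitors were examined in the tibias of ovariectomized rats: the matrix metalloproteases (MMPs), the ADAMTS proteases and the tissue inhibitors of metalloproteases (TIMPs). Every gene whose symbol is Mmp or Adamts followed by a number (with a copy letter where the symbol has one), or Timp1 to Timp4, was taken. The rule uses no measured level beyond at least 1 count in any rat. It found 46 symbols, of which 43 had any count, among 18423 genes with any count in the 22589 listed, and these 43 are 20 MMPs, 19 ADAMTS and 4 TIMPs.

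Left tibias of 3 female Sprague-Dawley rats from each of 3 groups were sequenced. The rats were bought at 9 weeks of age and operated on after 1 week of feeding, and tissue was taken 24 weeks after the operation. Both the RE/Ovx group (resistance exercise) and the NE/Ovx group (no exercise) had lost both ovaries, a model of bone loss after menopause. The RE/Ovx rats then climbed a ladder with a load for 12 weeks, 5 days a week, after 2 weeks of adaptive training. The Sham group kept its ovaries, lost a small piece of nearby fat and did not exercise. The study therefore has no exercised group with ovaries. Skin, muscle, ligament and tendon were removed, and total RNA depleted of ribosomal RNA was sequenced from what remained, so a library mixes the RNA of bone with that of cartilage and marrow. Markers of skeletal muscle and tendon were still present in every library, as given below, so some muscle RNA is part of the mix. In such bulk samples fewer cells of a type and less RNA per cell cannot be told apart.

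MMPs are zinc-dependent enzymes that are made as inactive precursors and cut collagens, gelatin and other matrix proteins. ADAMTS proteases are their secreted relatives with thrombospondin-type repeats, and they trim procollagens, cut cartilage proteoglycans or process fibrillin and von Willebrand factor. TIMPs bind the active site of the enzymes and hold them in check. In bone, Mmp13 from osteoblasts and hypertrophic chondrocytes, Mmp9 from osteoclasts and Mmp14 are known for growth plate turnover and matrix remodelling, and Mmp8 is stored by neutrophils.

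Total counts per library were 12967456 to 14946389 in RE/Ovx rats, 13568808 to 16671533 in NE/Ovx rats and 12297992 to 15123988 in Sham rats. To compare rats for 1 gene the text uses CPM (counts over the library size after scaling), and it uses FPKM (deposited, and corrected for gene length) to compare genes. Differences are log2 fold changes with their standard error (SE) from edgeR's quasi-likelihood fit over all 14520 genes with enough counts, and a Benjamini-Hochberg adjusted p under 0.05 over all of them is the threshold. Of the members, 37 were tested. Another 6 had too few counts for a test (Mmp20, Mmp21, Mmp24, Adamts8, Adamts16 and Adamts19). Mmp1, Mmp1b and Mmp7 had no count in any rat, which allows at most 3 counts per library, or 0.182 to 0.25 CPM. Bone markers were present in all libraries: the 10 osteoblast markers summed to 18294 to 29034 CPM in RE/Ovx rats, 16391 to 26856 CPM in NE/Ovx rats and 6936 to 9779 CPM in Sham rats. Most of these sums was Col1a1, at 19940, 19406 and 5983 CPM on average.

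Because transcription starts from the promoter, the 250 bases before the start are shown for 4 members that stand for the kinds of outcome below: Mmp23 and Adamts2, higher in both ovariectomized groups than in Sham, Mmp8, lower in RE/Ovx than in Sham, and Mmp13, the most abundant member, with no difference past the threshold. They come from the RefSeq promoter table of GRCr8, a later build than the Rnor_6.0 of the counts, which listed 35 of the 46 symbols. The 11 without a listed promoter, left out of the counts of motifs below, are Mmp2, Mmp14 and Mmp16, which passed the threshold in a comparison, and Mmp9, Mmp17, Mmp19, Adamts5, Adamts8, Adamts15, Adamts16 and Adamts19. Sequences run 5′ to 3′ on the strand of the gene, and capitals mark matches on either strand to any of 4 short motifs, none of which overlap here. The GC box, a common element of promoters without a TATA box, was searched as GGGCGG. The TATA box, which places the start of transcription, was searched as TATAAA. The AP-1 element, a site of bZIP factor dimers, was searched as TGANTCA, and the element of RUNX factors, known for bone gene control, as TGTGGT. The Mmp23 stretch lies at chr5:171524535-171524784 on the minus strand, that of Adamts2 at chr10:35421780-35422029, that of Mmp8 at chr8:13008640-13008889 and that of Mmp13 at chr8:12782579-12782828, these 3 on the plus strand.
Mmp23: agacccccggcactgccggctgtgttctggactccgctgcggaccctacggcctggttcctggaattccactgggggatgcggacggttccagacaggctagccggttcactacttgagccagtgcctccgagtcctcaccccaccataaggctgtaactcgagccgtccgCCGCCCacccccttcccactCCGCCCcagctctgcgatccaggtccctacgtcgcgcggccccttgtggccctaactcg
Adamts2: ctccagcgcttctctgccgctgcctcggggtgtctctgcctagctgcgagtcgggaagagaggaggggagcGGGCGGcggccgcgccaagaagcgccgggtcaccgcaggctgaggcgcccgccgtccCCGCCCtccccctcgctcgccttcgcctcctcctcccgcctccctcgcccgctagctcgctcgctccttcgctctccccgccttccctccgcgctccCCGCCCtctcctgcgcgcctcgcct
Mmp8: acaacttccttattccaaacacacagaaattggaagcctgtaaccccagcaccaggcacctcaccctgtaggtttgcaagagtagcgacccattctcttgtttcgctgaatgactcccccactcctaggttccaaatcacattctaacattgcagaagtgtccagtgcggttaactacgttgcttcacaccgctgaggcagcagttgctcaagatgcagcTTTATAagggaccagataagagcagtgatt
Mmp13: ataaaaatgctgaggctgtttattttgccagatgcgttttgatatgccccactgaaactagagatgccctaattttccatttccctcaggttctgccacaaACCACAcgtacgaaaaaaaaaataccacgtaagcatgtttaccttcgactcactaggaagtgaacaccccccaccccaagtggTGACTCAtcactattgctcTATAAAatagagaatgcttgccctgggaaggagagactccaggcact

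In Mmp13 the letters TGACTCA stand at -66 to -60 from the start, TATAAA at -47 to -42 and ACCACA, the RUNX letters on the other strand, at -149 to -144. Mmp8 has only a TATA match, TTTATA, the TATA letters on the other strand, at -30 to -25. Mmp23 and Adamts2 have 2 and 3 GC boxes and none of the other motifs. Mmp8 and Mmp13 belong to a block of 10 neighbouring MMP genes within 12 genes of the GRCr8 gene order (Mmp13, Mmp12, Mmp1b, Mmp3, Mmp1, Mmp10, Mmp8, Mmp27, Mmp20 and Mmp7). The listed promoters of this block and of the other members differ in the TATA, AP-1 and GC box letters. A TATA match was found in 8 of the 10 promoters of the block and in 4 of the 25 others that are listed, against 12.9% of all 33469 listed promoters. AP-1 letters were found in 7 of 10 and in 0 of 25 (6.34% of all), and GC boxes in 0 of 10 and in 16 of 25 (30.5% of all). RUNX letters were found in 2 of 10 and in 0 of 25 (14.5% of all), too few matches to set the block apart. A match is a description of the letters and not a bound site.

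After ovariectomy without exercise, 3 of the 37 tested members were higher than in Sham, Adamts2, Mmp16 and Mmp23, and 0 were lower. Over all tested genes 1.03% were higher and 0.20% lower. DESeq2 called 10 members higher there (4.56% of all genes to which it gave an adjusted p) and 1 lower, Mmp8 (2.32%), which was also the only one lower at an unadjusted edgeR p under 0.05. After ovariectomy with resistance exercise, 7 members were higher than in Sham, those 3 together with Mmp2, Mmp14, Adamts6 and Adamts10, against 5.0% of all genes, and 1 was lower, Mmp8, against 3.06%. DESeq2 called 13 members higher (8.06% of all genes) and 4 lower (5.48%) in that comparison. Mmp2, Mmp14, Adamts6 and Adamts10 were also among its calls in NE/Ovx, so with DESeq2 all 7 were higher in both ovariectomized groups. At an unadjusted edgeR p under 0.05 there were 17 members in each comparison, against 20.5% of all genes in NE/Ovx and 25.6% in RE/Ovx. The exercised and the unexercised ovariectomized rats differed in 0 members in either direction, as in 0% of all genes, and DESeq2 also called 0 members (0.0305% of the genes with an adjusted p higher and 0.00763% lower). Comparisons of the 2 ovariectomized groups with Sham use the same 3 Sham rats, so they are not independent of each other. Adamts17, Adamts15 and Timp1, named after their values were seen, had non-overlapping groups and an adjusted p between 0.0583 and 0.107 in both. The counts against Sham rest on few rats: 1 rat less gave 0 members in NE/Ovx when it was NE/Ovx rat 8 or 9 or Sham rat 7 or 12, and in RE/Ovx it gave 1 member when it was RE/Ovx rat 5 or 8, 3 when it was Sham rat 7 and 14 when it was RE/Ovx rat 3.

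**Figure D1:**
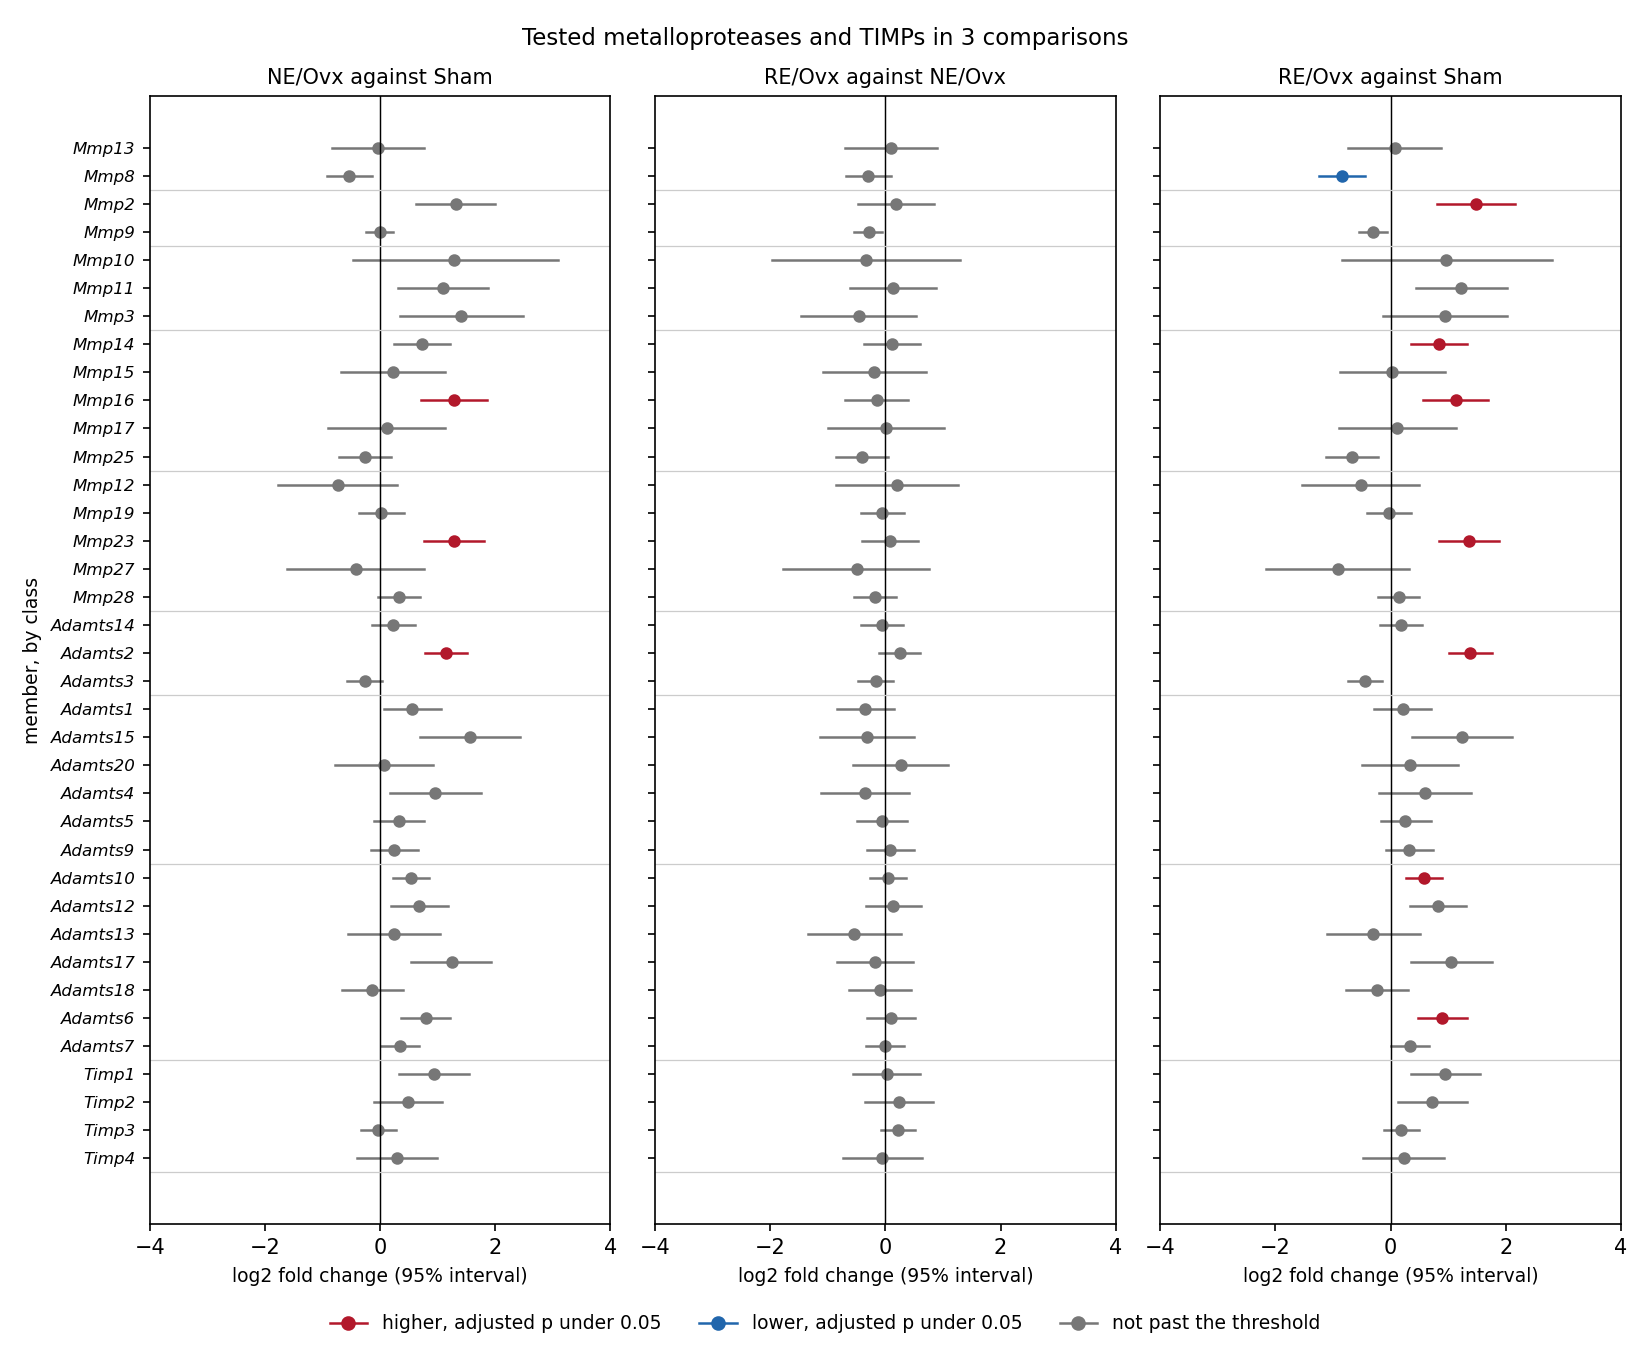
Log2 fold changes (x axis, first-named group over the other) of the 37 tested members, grouped by class from collagenases at the top to TIMPs at the bottom, with 95% intervals from edgeR; red and blue mark members past the threshold. The panels against Sham show 3 members higher (NE/Ovx) and 7 higher with 1 lower (RE/Ovx), and the panel of RE/Ovx against NE/Ovx shows none.

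Across all 37 members, 28 had a positive log2 fold change in NE/Ovx against Sham and 28 in RE/Ovx against Sham, while 50.4% and 48.9% of all tested genes did. Their median was 0.32 in both comparisons, with medians over all genes of 0.003 and -0.008. Without scaling factors, on library totals alone, 30 and 29 members were positive, with medians of 0.36 and 0.38. By ranges that do not overlap, 19 members had all 3 NE/Ovx rats above all 3 Sham rats (13.9% of all genes) and 2, Mmp8 and Mmp12, had them all below (11.4%). For RE/Ovx against Sham, 11 members were above (14.9% of all genes) and 3, Adamts3, Mmp25 and Mmp8, were below (13.0%).

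The collagenases are the enzymes that can cut the triple helix of fibrillar collagen. Mmp13, collagenase 3, had the highest mean level of all members at 304 FPKM over the 9 rats. It measured 585, 1045 and 840 CPM in RE/Ovx rats, 671, 606 and 1026 CPM in NE/Ovx rats and 412, 741 and 1200 CPM in Sham rats. The 3 groups overlapped throughout, and the Sham rats alone spanned the range of the others. Log2 fold changes were -0.03 (95% interval -0.83 to 0.76) for NE/Ovx against Sham and 0.07 (-0.73 to 0.87) for RE/Ovx against Sham, which leaves room for differences of over 1.5-fold either way.

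Mmp8, neutrophil collagenase, was the second most abundant member, with 290 FPKM on average. Its levels were 350, 237 and 384 CPM in RE/Ovx rats, 457, 355 and 386 CPM in NE/Ovx rats and 514, 641 and 589 CPM in Sham rats. Every ovariectomized rat was below every Sham rat. In RE/Ovx against Sham it fell by 0.84 on the log2 scale (SE 0.18, adjusted p = 0.0229), while in NE/Ovx against Sham the log2 fold change of -0.54 (SE 0.18, adjusted p = 0.131) did not pass. The adjusted p was between 0.0531 and 0.064 without Sham rat 7, RE/Ovx rat 5 or RE/Ovx rat 8.

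Markers of neutrophils and their precursors had the direction of Mmp8. The 9 markers summed to 3518 to 5493 CPM in RE/Ovx rats, 4710 to 5542 CPM in NE/Ovx rats and 6390 to 11211 CPM in Sham rats, and none was at 0. Of the 8 tested, 4 fell in RE/Ovx against Sham (Camp, S100a8, S100a9 and Cebpe), and the list's median log2 fold change was -0.71. Per 1000 CPM of these markers, Mmp8 measured 72.6, 67.5 and 69.9 in RE/Ovx rats, 83.5, 75.3 and 69.6 in NE/Ovx rats and 80.4, 57.2 and 71.8 in Sham rats, so on this ratio, chosen after the values were seen, the groups overlapped. On the same ratio Mmp9 did not: it measured 82.8, 133 and 78.1 in RE/Ovx rats, 95.6, 117 and 92.8 in NE/Ovx rats and 72.8, 48.8 and 71.2 in Sham rats, with every ovariectomized rat above Sham. Mmp25, a membrane-anchored MMP of leukocytes, was below Sham in every RE/Ovx rat, as Mmp8 was. It measured 12.6, 7.57 and 8.87 CPM in RE/Ovx rats, 13.8, 14.3 and 10.7 CPM in NE/Ovx rats and 17.2, 14 and 15.2 CPM in Sham rats. In NE/Ovx against Sham it overlapped, with a log2 fold change of -0.26 (SE 0.20, adjusted p = 0.491). Its log2 fold change in RE/Ovx against Sham was -0.67 (SE 0.20, adjusted p = 0.0687), and per 1000 CPM of neutrophil markers it overlapped, at 1.61 to 2.63 in RE/Ovx, 1.94 to 3.03 in NE/Ovx and 1.25 to 2.7 in Sham rats.

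Gelatinases cut denatured collagen and basement membrane collagen, and only 1 of the 2 genes, Mmp2, passed the threshold. Mmp2, gelatinase A, measured 106, 262 and 192 CPM in RE/Ovx rats, 134, 200 and 159 CPM in NE/Ovx rats and 74.8, 76.7 and 47.6 CPM in Sham rats. All ovariectomized rats were above all Sham rats, and RE/Ovx rat 3 was the lowest of them. In RE/Ovx against Sham, Mmp2 was 2.81-fold higher (log2 1.49, SE 0.31, adjusted p = 0.0219). This adjusted p reached at most 0.0815 when 1 rat was left out and was over 0.05 without Sham rat 8, RE/Ovx rat 5 or RE/Ovx rat 8. In NE/Ovx against Sham the fold change was 2.47 (log2 1.31, SE 0.31), with an adjusted p of 0.069 that did not pass, but it passed with DESeq2 (adjusted p = 0.000674), with edgeR on the 2 groups alone (adjusted p = 0.0398) and without the filter on low counts.

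Mmp9, gelatinase B, measured 399, 468 and 429 CPM in RE/Ovx rats, 524, 551 and 514 CPM in NE/Ovx rats and 465, 547 and 583 CPM in Sham rats. All RE/Ovx rats were below all NE/Ovx rats, but RE/Ovx rat 5 was above the lowest Sham rat. For NE/Ovx against Sham the log2 fold change was -0.01 (95% interval -0.25 to 0.23). For RE/Ovx against Sham it was -0.30 (SE 0.11, adjusted p = 0.116). The ratio of Mmp2 to Mmp9 in FPKM was 0.26, 0.55 and 0.44 in RE/Ovx rats, 0.252, 0.355 and 0.304 in NE/Ovx rats and 0.158, 0.138 and 0.08 in Sham rats. Neither ovariectomized group overlapped with Sham on this ratio.

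Mmp14, a membrane-type MMP that cuts collagen at the cell surface and activates the Mmp2 precursor together with Timp2, measured 93.9, 196 and 171 CPM in RE/Ovx rats, 127, 153 and 145 CPM in NE/Ovx rats and 79.1, 91.6 and 86.1 CPM in Sham rats. Here too every ovariectomized rat exceeded every Sham rat. The log2 fold change was 0.84 (SE 0.22, adjusted p = 0.0453) in RE/Ovx against Sham and 0.73 (SE 0.22, adjusted p = 0.115) in NE/Ovx against Sham. The first of these lost the threshold without any of Sham rats 12, 7 and 8 or RE/Ovx rats 5 and 8, with an adjusted p of up to 0.166, and was 0.00301 without RE/Ovx rat 3, the lowest of its group. It was also lost under limma on FPKM and when edgeR was fitted to the 2 groups alone. The NE/Ovx difference passed with DESeq2 (adjusted p = 0.0267) and with edgeR on the 2 groups alone (adjusted p = 0.0367).

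The inhibitors were led by Timp2, which binds Mmp2 and its activator, at 76.2 FPKM on average, and Timp3, which is held in the matrix and also restrains ADAMTS proteases, at 50.2 FPKM. None of the 4 passed the threshold in any comparison with edgeR. DESeq2 called Timp1 higher in both ovariectomized groups and Timp2 higher in RE/Ovx than in Sham (4.56% of all genes in NE/Ovx and 8.06% in RE/Ovx). At an unadjusted edgeR p under 0.05 the same calls appear, where 20.5% and 25.6% of all genes passed in either direction. Timp1 measured 13.1, 27.1 and 22.7 CPM in RE/Ovx rats, 14.3, 24.4 and 23.1 CPM in NE/Ovx rats and 11.4, 10.8 and 10.2 CPM in Sham rats. All 6 ovariectomized rats were above the Sham rats, whose values lay close together, and rats RE/Ovx 3 and NE/Ovx 6 were nearest to them. Its log2 fold changes against Sham were 0.95 (SE 0.27, adjusted p = 0.0583) in RE/Ovx and 0.93 (SE 0.27, adjusted p = 0.107) in NE/Ovx.

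Timp2 measured 87.9, 216 and 160 CPM in RE/Ovx rats, 115, 133 and 144 CPM in NE/Ovx rats and 92.8, 109 and 78.3 CPM in Sham rats. The NE/Ovx rats were all above Sham, while RE/Ovx rat 3 fell inside the Sham range, and the log2 fold changes were 0.72 (SE 0.27, adjusted p = 0.121) in RE/Ovx and 0.48 (SE 0.27, adjusted p = 0.335) in NE/Ovx against Sham. Timp3 was at 233, 237 and 280 CPM in RE/Ovx rats, 213, 186 and 245 CPM in NE/Ovx rats and 187, 248 and 223 CPM in Sham rats, and Timp4 at 2.58 to 6.79 CPM over all rats. The groups overlapped for both, with log2 fold changes against Sham between -0.03 and 0.29.

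**Figure D2:**
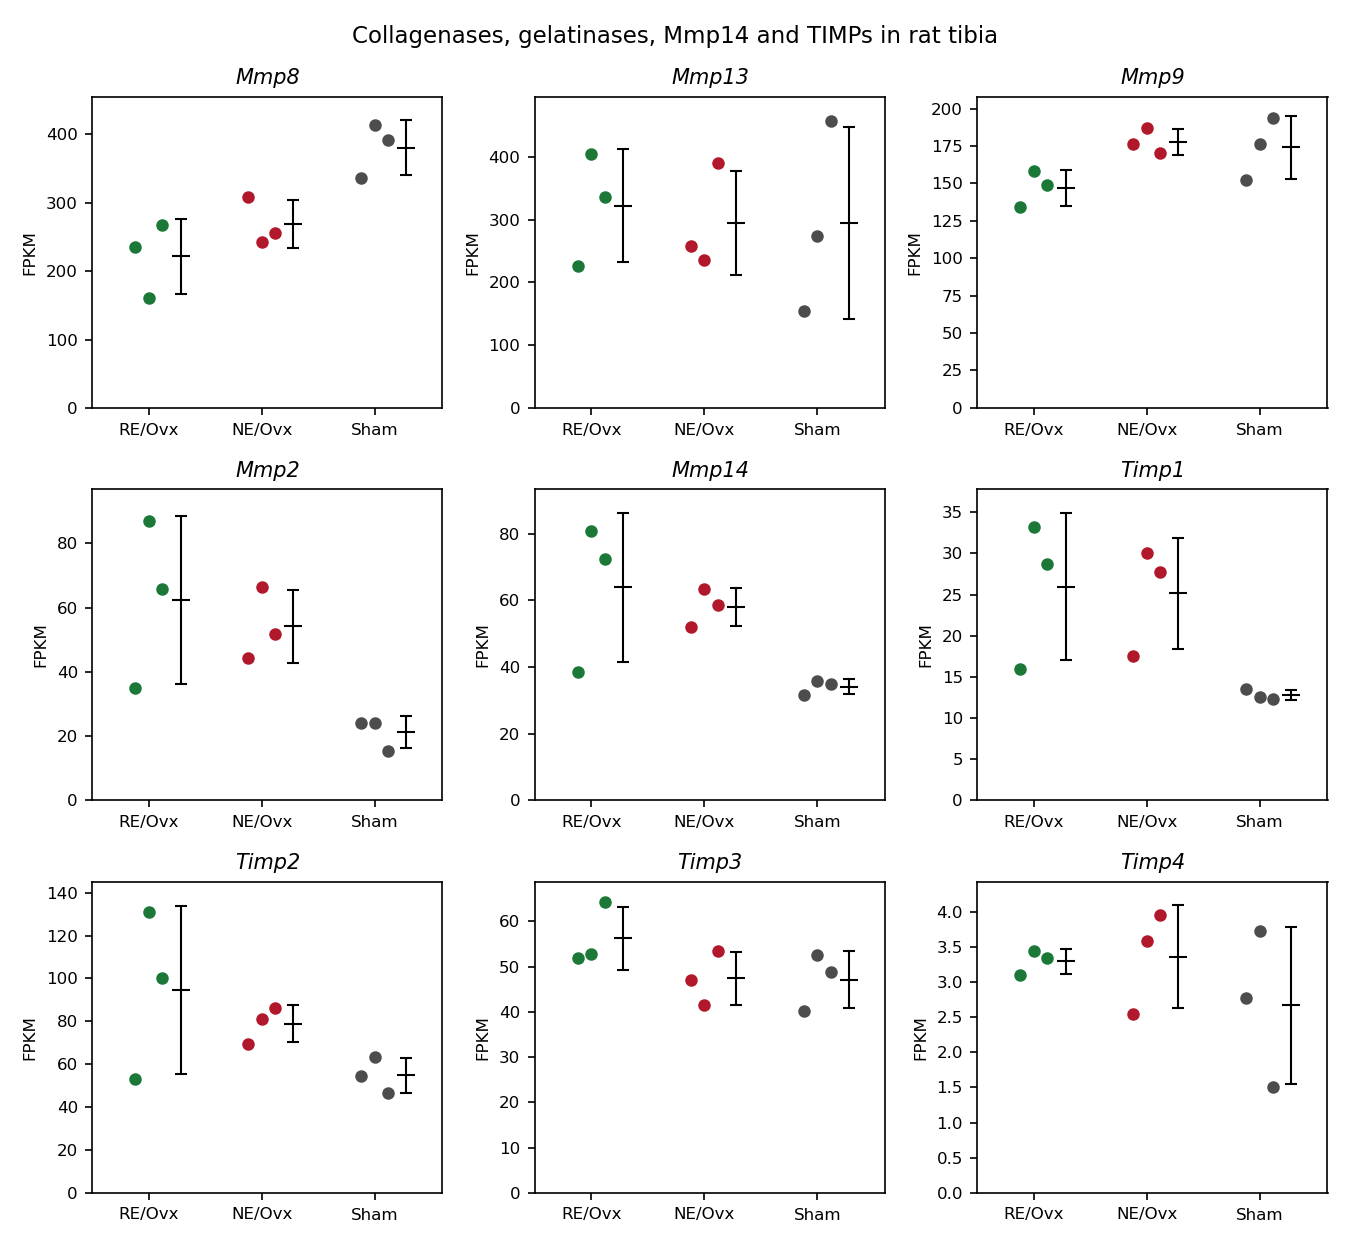
FPKM (y axis, from 0) of the collagenases, gelatinases, Mmp14 and the 4 TIMPs in each rat (points, with rats in the order 3, 5, 8 for RE/Ovx, 6, 8, 9 for NE/Ovx and 12, 7, 8 for Sham); bars beside the points are the mean and SD of 3 rats. Mmp2, Mmp14 and Timp1 have all ovariectomized rats above Sham, Mmp8 has all of them below, and Mmp13 and Timp4 overlap widely.

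Set beside their inhibitors on the length-corrected scale, the sum of all MMPs over that of all TIMPs was lower in each ovariectomized rat than in each Sham rat. All MMPs summed to 849 ± 129 FPKM in RE/Ovx rats, 888 ± 64.4 FPKM in NE/Ovx rats and 933 ± 199 FPKM in Sham rats (SD, n = 3 each), so the groups overlapped. All TIMPs summed to 180 ± 50.1 FPKM in RE/Ovx, 155 ± 17.4 FPKM in NE/Ovx and 117 ± 12.7 FPKM in Sham rats, with all NE/Ovx rats above Sham but RE/Ovx rat 3, at 124 FPKM, below Sham rat 7 at 132 FPKM. The ratio of the sums was 5.64, 4.19 and 4.7 in RE/Ovx rats, 6.38, 5.33 and 5.6 in NE/Ovx rats and 6.55, 7.19 and 10.3 in Sham rats. The nearest were NE/Ovx rat 6 at 6.38 and Sham rat 12 at 6.55. The gelatinases alone, Mmp2 and Mmp9 over all TIMPs, gave 1.36, 1.11 and 1.09 in RE/Ovx rats, 1.61, 1.62 and 1.3 in NE/Ovx rats and 1.59, 1.51 and 1.92 in Sham rats. On that ratio RE/Ovx lay below Sham and NE/Ovx overlapped with it. Mmp8, Mmp9 and Mmp13 made up 81.7 ± 3.41% of all MMP FPKM in RE/Ovx, 83.4 ± 3.09% in NE/Ovx and 90.8 ± 2.24% in Sham rats, so the sums follow these 3 genes.

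Single enzyme and inhibitor pairs differed in direction. Mmp9 over Timp1 was 8.41, 4.76 and 5.21 in RE/Ovx rats, 10.1, 6.24 and 6.13 in NE/Ovx rats and 11.2, 13.9 and 15.8 in Sham rats, below Sham in every ovariectomized rat. Mmp2 over Timp2 was 0.656, 0.663 and 0.655 in RE/Ovx rats, 0.637, 0.819 and 0.601 in NE/Ovx rats and 0.44, 0.383 and 0.331 in Sham rats, above Sham in every ovariectomized rat. The 3 RE/Ovx rats held nearly 1 value of this ratio although their Mmp2 levels ran between 34.9 and 86.9 FPKM. Mmp14 over Timp2 overlapped, with 0.617 to 0.724 in RE/Ovx, 0.682 to 0.782 in NE/Ovx and 0.568 to 0.746 in Sham rats. These are ratios of RNA levels, and no test was run on them.

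**Figure D3:**
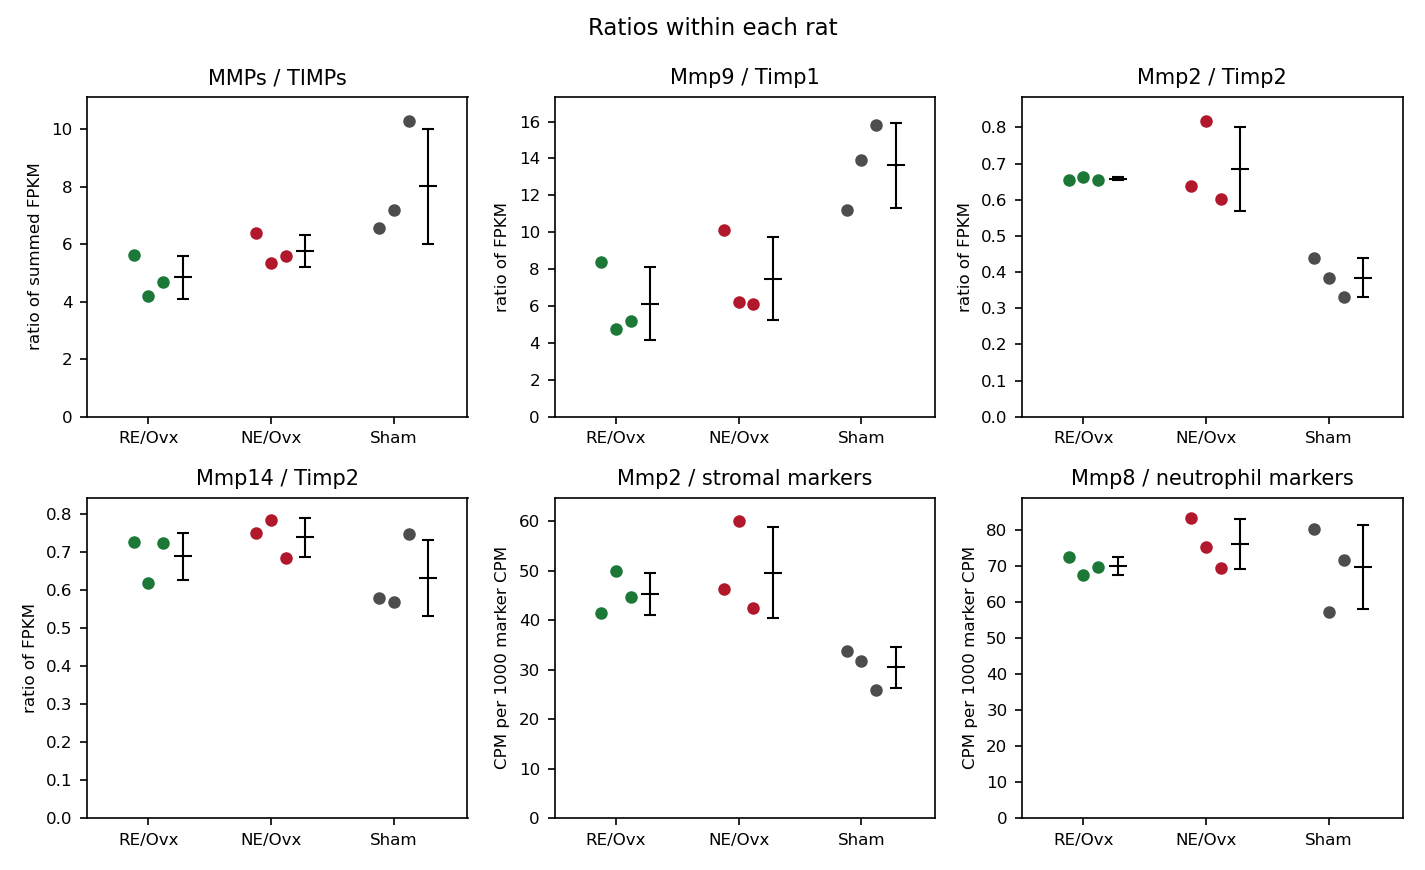
Ratios within each rat (points, rats in the order 3, 5, 8 for RE/Ovx, 6, 8, 9 for NE/Ovx and 12, 7, 8 for Sham; bars, mean and SD of 3 rats): FPKM ratios of enzymes to TIMPs, and CPM of Mmp2 and Mmp8 per 1000 CPM of stromal and neutrophil markers. Mmp9 over Timp1 is lower and Mmp2 over Timp2 higher in all ovariectomized rats than in Sham, while Mmp8 per neutrophil marker CPM overlaps.

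The other membrane-type MMPs were of lower level, and 1 of them differed. Mmp16, a close relative of Mmp14 with a transmembrane anchor, measured 38.4, 50.4 and 41.5 CPM in RE/Ovx rats, 30.6, 56.3 and 57.7 CPM in NE/Ovx rats and 14.4, 21 and 24.2 CPM in Sham rats. It was 2.18-fold higher in RE/Ovx than in Sham (log2 1.13, SE 0.25, adjusted p = 0.0294) and 2.42-fold higher in NE/Ovx than in Sham (log2 1.28, SE 0.25, adjusted p = 0.0458). The groups did not overlap, but NE/Ovx rat 6 lay closer to Sham than to its own group. The NE/Ovx call was lost when any 1 rat other than NE/Ovx rat 6 was left out, with an adjusted p of up to 0.155, under limma on FPKM and with edgeR on the 2 groups alone. The RE/Ovx call was lost without Sham rat 12 or 7 or RE/Ovx rat 5 or 8 (adjusted p up to 0.115). Mmp15 and Mmp17 had log2 fold changes between 0.03 and 0.22 against Sham, with overlapping groups.

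Mmp23, an unusual MMP with a membrane anchor at its amino end, was low but regular. It measured 5.32, 7.72 and 7.13 CPM in RE/Ovx rats, 6.76, 6.02 and 6.24 CPM in NE/Ovx rats and 2, 2.68 and 3.14 CPM in Sham rats. All ovariectomized rats were well above Sham, and it was 2.57-fold higher in RE/Ovx (log2 1.36, SE 0.23, adjusted p = 0.0142) and 2.42-fold higher in NE/Ovx (log2 1.28, SE 0.23, adjusted p = 0.0335). Without 1 rat the adjusted p was at most 0.0592 in RE/Ovx, over 0.05 without RE/Ovx rat 5 or 8. In NE/Ovx it was at most 0.112, and under 0.05 only when Sham rat 8 was the one left out. With edgeR on the 2 groups alone it was 0.0536. Mmp19, the most abundant of the remaining MMPs at 5.87 FPKM, stayed between 9.75 and 14.1 CPM in all 9 rats.

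The stromelysin class was low and noisy. Mmp11, stromelysin 3, led it with 4.1, 4.59 and 7.32 CPM in RE/Ovx rats, 5.95, 4.57 and 4.12 CPM in NE/Ovx rats and 1.33, 2.2 and 3.3 CPM in Sham rats. Both ovariectomized groups lay above Sham, with log2 fold changes of 1.23 (SE 0.35, adjusted p = 0.0609) in RE/Ovx and 1.09 (SE 0.35, adjusted p = 0.131) in NE/Ovx. Mmp3 and Mmp10, stromelysins 1 and 2, averaged 2.66 and 0.973 CPM over the 9 rats, and 0 of the 3 tested members of the class passed with edgeR. DESeq2 called Mmp11 higher in RE/Ovx (8.06% of all genes). At an unadjusted edgeR p under 0.05 Mmp11 and Mmp3 were higher in NE/Ovx and Mmp11 in RE/Ovx. In either direction 20.5% and 25.6% of all genes passed there, so the 1 of 3 in RE/Ovx is near the share of all genes. Of the 10-gene block that holds Mmp3, Mmp8, Mmp10 and Mmp13, 6 members were tested, and Mmp8 in RE/Ovx against Sham was the only one to pass in any comparison.

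Among the ADAMTS, the procollagen N-proteinases remove the amino propeptide of fibrillar procollagens so that fibrils can form. Adamts2, the main one for type I procollagen, measured 51.3, 71.8 and 72.5 CPM in RE/Ovx rats, 44, 63 and 57.9 CPM in NE/Ovx rats and 25, 23.3 and 26.6 CPM in Sham rats. The Sham rats were tightly grouped and far below the others. Adamts2 was 2.61-fold higher in RE/Ovx (log2 1.38, SE 0.17, adjusted p = 0.00485) and 2.2-fold higher in NE/Ovx (log2 1.14, SE 0.17, adjusted p = 0.0225) than in Sham. It was the one member whose RE/Ovx call held without each of the 6 rats in turn (adjusted p 0.00234 to 0.0266). The NE/Ovx call needed Sham rats 12 and 7 and NE/Ovx rats 8 and 9: without any of them its adjusted p was 0.0535 to 0.0876.

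The relatives of Adamts2 with the same kind of activity did not show this difference. Adamts3, the most abundant of the class at 11.4 FPKM, measured 69.8, 58 and 64.6 CPM in RE/Ovx rats, 74, 79.6 and 63 CPM in NE/Ovx rats and 103, 76 and 82 CPM in Sham rats. The RE/Ovx rats were all below Sham, with a log2 fold change of -0.44 (SE 0.14, adjusted p = 0.0723) that did not pass. Adamts14 overlapped in all groups, at 9.14 to 13.9 CPM.

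**Figure D4:**
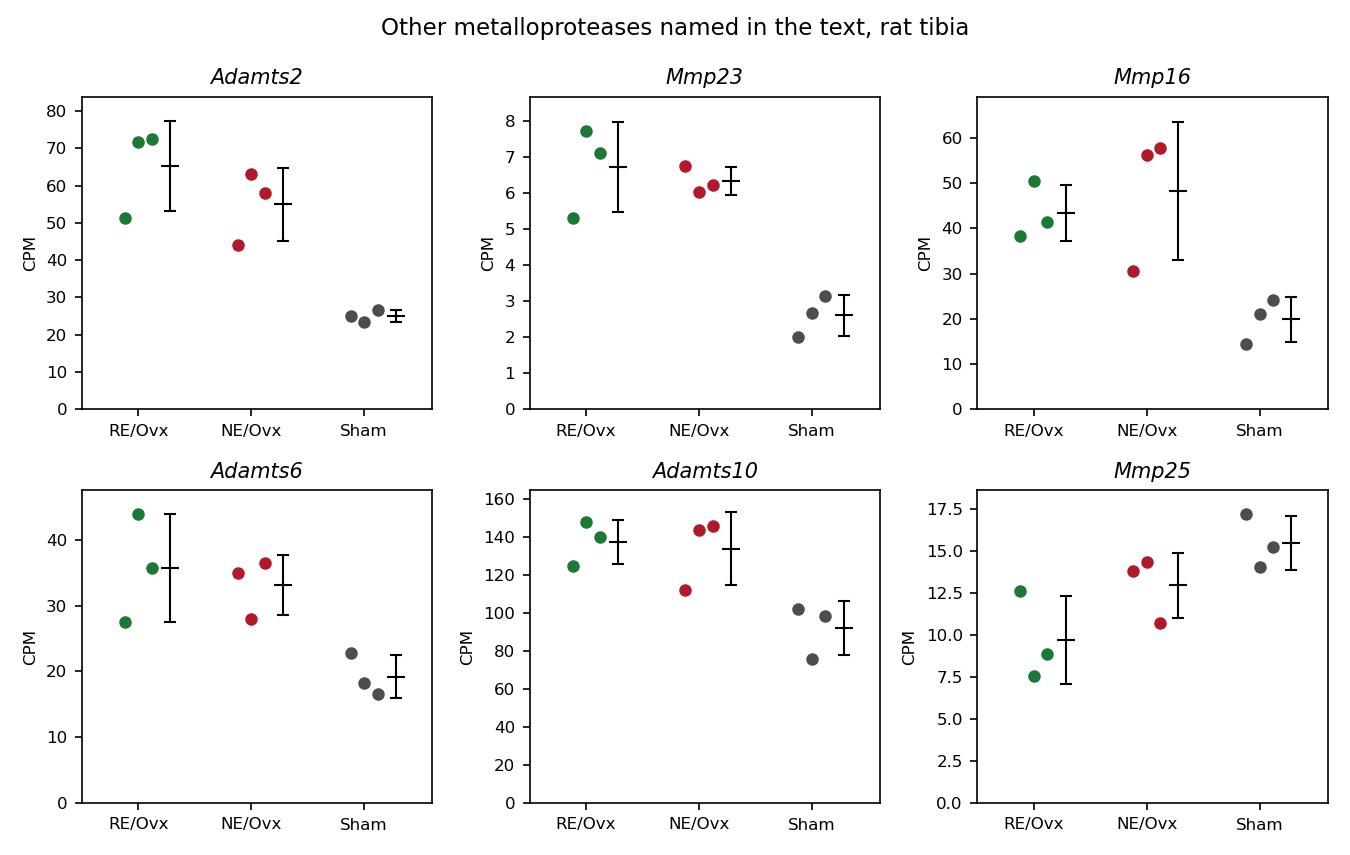
CPM (y axis, from 0) of Adamts2, Mmp23, Mmp16, Adamts6, Adamts10 and Mmp25 in each rat (points, rats in the order 3, 5, 8 for RE/Ovx, 6, 8, 9 for NE/Ovx and 12, 7, 8 for Sham) with the mean and SD of 3 rats. The first 5 genes have all ovariectomized rats above Sham, and Adamts2 in Sham stays between 23.3 and 26.6 CPM; Mmp25 has all RE/Ovx rats below Sham.

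Adamts6 and Adamts10, a pair of close relatives of which Adamts10 is known for its part in fibrillin microfibrils, were both higher in RE/Ovx than in Sham. Adamts6 measured 27.5, 43.9 and 35.7 CPM in RE/Ovx rats, 35, 28 and 36.5 CPM in NE/Ovx rats and 22.8, 18.2 and 16.5 CPM in Sham rats. The groups did not overlap with Sham, and the log2 fold change was 0.90 (SE 0.19, adjusted p = 0.0236) in RE/Ovx and 0.79 (SE 0.19, adjusted p = 0.0727) in NE/Ovx. Adamts10, the most abundant ADAMTS at 27.5 FPKM, measured 125, 148 and 140 CPM in RE/Ovx rats, 112, 144 and 146 CPM in NE/Ovx rats and 102, 75.7 and 98.3 CPM in Sham rats. Its change was smaller, 0.59 (SE 0.14, adjusted p = 0.0349) in RE/Ovx and 0.54 (SE 0.14, adjusted p = 0.0832) in NE/Ovx on the log2 scale. Both RE/Ovx calls were lost without Sham rat 7 or 8 or RE/Ovx rat 5 or 8, with adjusted p of up to 0.0914 for Adamts6 and 0.137 for Adamts10. In NE/Ovx both passed with DESeq2, at an adjusted p of 0.00653 for Adamts6 and 0.0155 for Adamts10.

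The proteoglycanases include the aggrecanases Adamts4 and Adamts5, which cut the large proteoglycan of cartilage. None of the 6 tested members passed in any comparison with edgeR. DESeq2 called Adamts15 higher in both ovariectomized groups than in Sham (4.56% of all genes in NE/Ovx and 8.06% in RE/Ovx). At an unadjusted edgeR p under 0.05, 3 members in NE/Ovx (Adamts1, Adamts4 and Adamts15) and 1 in RE/Ovx (Adamts15) were higher. In either direction 20.5% and 25.6% of all genes passed there, so the 1 of 6 in RE/Ovx is not above the share of all genes. Adamts5, the most abundant at 9.34 FPKM, measured 19.8, 30.3 and 31.4 CPM in RE/Ovx rats, 31, 24.6 and 29.3 CPM in NE/Ovx rats and 18.2, 26.6 and 23 CPM in Sham rats, with overlap in all comparisons. All 6 log2 fold changes were positive against Sham, from 0.21 to 1.24 in RE/Ovx and from 0.06 to 1.56 in NE/Ovx, and the largest was that of Adamts15. Adamts1 and Adamts5 are neighbours in the GRCr8 gene order, as are Adamts8 and Adamts15 with 1 gene between them.

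Resistance exercise was compared with no exercise within the ovariectomized rats, and no member passed in either direction. The group ranges were separate for 1 member, Mmp9, which was lower in every RE/Ovx rat (6.84% of all genes had separate ranges with RE/Ovx below). For 0 members all RE/Ovx rats lay above (4.75% of all genes). Mmp9 had a log2 fold change of -0.29 (SE 0.11, 95% interval -0.54 to -0.05), with an edgeR p of 0.0212 before and 0.921 after adjustment. It was the only member under 0.05 before adjustment, 2.70% of the 37, against 5.28% of all genes. The next smallest p values belonged to Mmp25 (log2 -0.41, SE 0.20), Mmp8 (-0.30, SE 0.18) and Timp3 (0.22, SE 0.14), each with an adjusted p of at least 0.948.

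For the members that were higher than Sham, the difference between the ovariectomized groups was small against its error. Intervals of RE/Ovx against NE/Ovx were -0.48 to 0.85 for Mmp2, -0.37 to 0.60 for Mmp14, -0.70 to 0.40 for Mmp16, -0.40 to 0.57 for Mmp23, -0.11 to 0.60 for Adamts2, -0.31 to 0.52 for Adamts6 and -0.27 to 0.35 for Adamts10. For each of them except Adamts2 the interval holds values on both sides of 0 that reach at least 1.2-fold. The number of members past the threshold against Sham is larger in RE/Ovx than in NE/Ovx, but 0 of those members differed between the 2 ovariectomized groups. RE/Ovx rat 3 was the lowest of its group for 25 of the 37 members and for all 7 that were higher. Skeletal muscle markers also differed between these groups, at 6087 to 9072 CPM in RE/Ovx and 12581 to 16063 CPM in NE/Ovx rats (0 of 8 past the threshold, median log2 fold change -0.95). Sham rats spanned 4713 to 14214 CPM of these markers and overlapped with both groups. The part of muscle RNA in the levels of the members was not tested.

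Markers of several cell types differed between the same groups. Adipocyte markers (9 genes, none at 0) differed most: they summed to 540 to 755 CPM in RE/Ovx rats, 435 to 555 CPM in NE/Ovx rats and 147 to 293 CPM in Sham rats, with 9 of 9 higher in RE/Ovx than in Sham (median log2 fold change 1.58) and 3 of 9 in NE/Ovx (median 1.38). Fibroblast and stromal markers (8 genes, none at 0) summed to 2542 to 5256 CPM in RE/Ovx rats, 2892 to 3749 CPM in NE/Ovx rats and 1837 to 2424 CPM in Sham rats, and 3 of 8 were higher in RE/Ovx than in Sham (Pdgfra, Lum and Thy1) and 0 of 8 in NE/Ovx. Of these 8, Lepr had log2 fold changes of -0.12 in RE/Ovx and -0.49 in NE/Ovx, and Cxcl12 of 0.39 and 0.03, none past the threshold. Chondrocyte markers (9 genes, none at 0) summed to 2807 to 2980 CPM in RE/Ovx, 2051 to 3208 CPM in NE/Ovx and 839 to 1767 CPM in Sham rats, with 5 of 9 higher in RE/Ovx and 2 of 9 in NE/Ovx. Hypertrophic chondrocyte markers (4 genes) summed to 193 to 203 CPM in RE/Ovx, 131 to 221 CPM in NE/Ovx and 99.2 to 179 CPM in Sham rats. Their medians against Sham were 0.90 in RE/Ovx and 0.78 in NE/Ovx, with none past the threshold. Of the 10 osteoblast markers, whose sums are given above, Col1a1 and Bglap were higher in both. The others did not pass, and Ibsp had log2 fold changes of -0.19 in RE/Ovx and -0.17 in NE/Ovx. The 5 B cell markers summed to 279 to 341 CPM in RE/Ovx, 214 to 353 CPM in NE/Ovx and 50.7 to 193 CPM in Sham rats, with medians of 1.22 and 1.10 and none past the threshold. Endothelial markers (6 genes) summed to 268 to 383 CPM in RE/Ovx, 277 to 282 CPM in NE/Ovx and 226 to 240 CPM in Sham rats, with Pecam1 and Tek past the threshold in RE/Ovx and none in NE/Ovx. Tendon markers (4 genes) overlapped between RE/Ovx, at 147 to 461 CPM, and Sham, at 63.3 to 155 CPM, with 183 to 227 CPM in NE/Ovx and Fmod higher in RE/Ovx than in Sham. Erythroid markers (6 genes) ran lower, at 34126 to 55748 CPM in RE/Ovx and 40904 to 52314 CPM in NE/Ovx, against 58934 to 62631 CPM in Sham rats, with none past the threshold. Osteoclast markers (6 genes) overlapped, at 696 to 1486 CPM in RE/Ovx, 1105 to 1402 CPM in NE/Ovx and 670 to 1147 CPM in Sham rats. Of the 5 tested, Oscar was lower in RE/Ovx than in Sham (log2 -1.14, SE 0.29), and the list's median there was 0.04. In RE/Ovx against NE/Ovx that median was -0.14, with none past the threshold. Sums of macrophage and megakaryocyte markers also overlapped between all groups, and of these only Itga2b passed, lower in RE/Ovx than in Sham. Per 1000 CPM of stromal markers, a ratio chosen after the values were seen, Mmp2 measured 41.5 to 49.9 in RE/Ovx rats, 42.5 to 60 in NE/Ovx rats and 25.9 to 33.8 in Sham rats, still without overlap. Cxcl12 and Col3a1 are the largest parts of this sum, at 890 and 566 CPM on average in Sham rats. Dcn, the stromal marker with the largest change, had log2 fold changes of 1.53 in RE/Ovx and 1.28 in NE/Ovx against Sham. Those of Mmp2 were 1.49 and 1.31, and the medians of the stromal list were 0.94 and 0.76. Whether the separation depends on the markers summed was not tested. Per 1000 CPM of the summed stromal markers, Mmp14 gave 36.9 to 39.7 in RE/Ovx, 38.7 to 46.1 in NE/Ovx and 35.8 to 46.9 in Sham rats. On that ratio Mmp14, Mmp16, Mmp23, Adamts2, Adamts6 and Adamts10 overlapped with Sham in at least 1 of the 2 comparisons. The part of cell makeup in the differences was not tested.

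Other genes of the pathway were taken from 3 lists. Of 17 tested genes that activate, inhibit or clear matrix proteases or process collagen, 0 passed in NE/Ovx against Sham with edgeR (7 at an unadjusted p under 0.05), and 4 were higher and 1 lower in RE/Ovx against Sham. The 4 were Pcsk5, a proprotein convertase (log2 1.34, SE 0.30), Reck, a membrane-anchored MMP inhibitor (0.91, SE 0.20), Lrp1, a receptor that clears MMPs and TIMPs (0.60, SE 0.13), and Pcolce, an enhancer of procollagen processing (1.02, SE 0.21). Plaur, the urokinase receptor that focuses plasmin formation, was lower (-0.60, SE 0.11). The list's median log2 fold change was 0.47 in NE/Ovx and 0.57 in RE/Ovx against Sham.

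Among 7 ADAMTS-like genes, which share the ancillary domains but not the protease, Adamtsl3 was higher in both ovariectomized groups (log2 1.12, SE 0.14 in RE/Ovx and 0.96, SE 0.14 in NE/Ovx), and Papln and Thsd4 were higher in RE/Ovx (0.62, SE 0.12 and 0.79, SE 0.18). In NE/Ovx these 2 had an adjusted p of 0.0843 and 0.0561. Adamtsl1 and Adamtsl2 went the other way in RE/Ovx against Sham without passing. Their log2 fold changes there were -0.68 (SE 0.22, adjusted p = 0.0873) and -0.69 (SE 0.19, adjusted p = 0.0547). In NE/Ovx against Sham they were -0.55 (SE 0.22) and -0.09 (SE 0.19). Of 17 substrates, 7 were higher in RE/Ovx than in Sham (5.0% of all genes) and 4 in NE/Ovx (1.03%). In both, 0 were lower (3.06% and 0.20% of all genes). Vwf had negative log2 fold changes in both (-0.32, SE 0.09 in RE/Ovx and -0.31, SE 0.09 in NE/Ovx), and Vcan in RE/Ovx (-0.32, SE 0.12). Col1a2 did not pass either, at 1.55 (SE 0.57) in RE/Ovx and 0.64 (SE 0.56) in NE/Ovx. Col1a1, the main collagen of bone and the substrate of Adamts2 once made as procollagen, averaged 19940 ± 5002 CPM in RE/Ovx rats, 19406 ± 4685 CPM in NE/Ovx rats and 5983 ± 1284 CPM in Sham rats (SD, n = 3 each). Acan, the aggrecan core protein, averaged 313 ± 62.1 CPM in RE/Ovx, 284 ± 47.8 CPM in NE/Ovx and 145 ± 8.76 CPM in Sham rats. The median substrate differed by 1.16 in RE/Ovx and 0.94 in NE/Ovx against Sham on the log2 scale, larger than the median member at 0.32. None of the genes in the 3 lists passed in RE/Ovx against NE/Ovx.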

How the data were processed

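RNA-seq libraries of 9 left tibias were analysed, and the authors deposited for each a whole-number read count and an FPKM value per gene. Per the submitters' notes, reads were trimmed with Trimmomatic, and HISAT2, Bowtie2, StringTie and DESeq were run on Rnor_6.0, with no versions. The FPKM to count ratio of a gene varies between libraries by 1 common factor (largest relative spread 8.9e-09). The library kit keeps strand, but its use in counting is not given in the sources read, so overlapping and near-identical genes (the Mmp1 copies among them) are uncertain.

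Groups follow GEO's titles, and rats are named by the numbers there. Libraries of a group differed by more than sampling noise (lowest chi-square per degree of freedom 21.93). Counts were fitted in R 4.3.3 with edgeR 4.0.16 (filterByExpr, TMM factors of 0.962 to 1.04, quasi-likelihood F test), with 1 fit of all 9 libraries and group as the only term, and p adjusted over 14520 genes. Printed CPM are counts scaled to the library size times its TMM factor. The test was checked on simulated counts.

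Members, classes, markers and pathway lists were chosen with earlier results of these data known. The named genes are every collagenase, gelatinase and TIMP with any count and Mmp14, each other member past the threshold, the 4 members with the smallest p where none passed, and the member of highest mean FPKM in each class; others with values were picked as examples after their values were seen. Alternatives were DESeq2 1.42.0, edgeR with library totals, with median-of-ratios factors, without the filter or on the 2 groups alone, limma 3.58.1 on log2(FPKM + 1), on log2(FPKM + 0.1) or on genes of at least 1 FPKM in 3 libraries, and leaving out each rat. Promoters came from RefSeq (GRCr8). Tables and figures were made in Python 3.11.15 (pandas 2.3.3, numpy 2.4.6, matplotlib 3.10.9). Counting error sets the precision of low genes, and 3 rats a group set that of all others.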

Additional observations from a re-analysis of the deposited data

How the results depend on the processing

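The number of members past the threshold depended most on the tool and on single rats. DESeq2 called 11 members in NE/Ovx against Sham (10 higher, 1 lower) and 17 in RE/Ovx against Sham (13 higher, 4 lower), where edgeR called 3 and 8, and it kept all of edgeR's; over all genes it called 998 and 1964, against 178 and 1171 with edgeR. Leaving out 1 rat gave 0 to 3 members in NE/Ovx against Sham (0 without NE/Ovx rat 8 or 9, or without Sham rat 7 or 12) and 1 to 14 in RE/Ovx against Sham (1, Adamts2, without RE/Ovx rat 5 or 8; 3 without Sham rat 7; 14 without RE/Ovx rat 3); the cause was not tested. RE/Ovx against NE/Ovx had 0 members in every alternative. No paired analysis was possible, because the rats were assigned at random to separate groups and a shared rat number does not make a pair.

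Some log2 fold changes near 0 changed sign. For NE/Ovx against Sham, limma on FPKM gave 0.10 for Mmp13 under each of its 3 settings, 0.04 for Mmp9 and 0.01 for Timp3, and library totals gave 0.03 for Mmp9 and 0.01 for Timp3. For RE/Ovx against Sham, Mmp19 was 0.04 under library totals and limma. Without 1 rat, NE/Ovx against Sham ranged from -0.36 to 0.40 for Mmp13, -0.13 to 0.10 for Mmp19, -0.11 to 0.06 for Mmp9, -0.15 to 0.06 for Timp3 and -0.01 to 0.62 for Timp4. RE/Ovx against Sham ranged from -0.25 to 0.51 for Mmp13, -0.17 to 0.06 for Mmp19 and -0.06 to 0.57 for Timp4. RE/Ovx against NE/Ovx ranged from -0.07 to 0.12 for Adamts10, -0.19 to 0.12 for Adamts5, -0.07 to 0.26 for Adamts6, -0.17 to 0.30 for Mmp11, -0.10 to 0.38 for Mmp13, -0.10 to 0.37 for Mmp14, -0.39 to 0.01 for Mmp16, -0.17 to 0.05 for Mmp19, -0.14 to 0.47 for Mmp2, -0.02 to 0.23 for Mmp23, -0.20 to 0.27 for Timp1, -0.08 to 0.52 for Timp2 and -0.22 to 0.10 for Timp4. Of the single-gene values, 675 kept their direction and side of the threshold, 53 changed sign, 48 lost the threshold and 22 gained it. Members under about 1 CPM, such as Mmp12 and Mmp27, are limited by depth.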

Other observations

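Levels spread over a wide range within the family. On the length-corrected scale, Mmp13, Mmp8 and Mmp9 averaged 304, 290 and 166 FPKM over the 9 rats, followed by Timp2 at 76.2, Mmp14 at 52, Timp3 at 50.2 and Mmp2 at 46 FPKM. No ADAMTS passed 27.5 FPKM, the mean of Adamts10, and all ADAMTS together summed to 101 ± 9.53 FPKM in RE/Ovx rats, 103 ± 4.21 FPKM in NE/Ovx rats and 77.1 ± 8.06 FPKM in Sham rats (SD, n = 3 each). Every ovariectomized rat, from 90.5 to 108 FPKM, was above every Sham rat, from 68.7 to 84.7 FPKM. This sum was looked at after the values were seen and was not tested.

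Adamts13, the protease that cuts von Willebrand factor, varied between rats with overlapping groups, at 41.9, 16.5 and 21.3 CPM in RE/Ovx rats, 50.6, 25.9 and 39.2 CPM in NE/Ovx rats and 23.9, 29.9 and 44.2 CPM in Sham rats. Mmp10 was at 2.37 CPM in RE/Ovx rat 5 and at 0.0806 CPM in Sham rat 8, the widest relative range among the tested members. Mmp20, an enzyme of tooth enamel, had counts in only 2 of the 9 libraries. Mmp21 was at 0.229 to 0.269 CPM in RE/Ovx rats, 0.0692 to 0.242 CPM in NE/Ovx rats and 0.0833 to 0.161 CPM in Sham rats, levels near the 3-count limit of 0.182 to 0.25 CPM.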
